A study of Saccharomyces cerevisiae with 16 samples.

Results

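RNA levels in yeast cells pre-treated with FK506 were compared directly with those in ET-treated control cells 30 minutes after CaCl2 was added. The comparison used 4 libraries of the 16 in the series, 2 from each pre-treatment, and covered every gene of the count table, of which 6206 of 7126 features had enough counts to be tested. All libraries came from 1 strain, YJB622, a haploid *MATa* derivative of BY4741. It carried *hog1Δ::LEU2* and *crz1Δ::KanMx* with a tagged allele, *Hcm1-3HA-HIS3*, in a background of *met15Δ0*, *ura3Δ0*, *his3Δ0* and *leu2Δ0*. Control and FK506-treated cells therefore both lacked the transcription factor (TF) Crz1, the kinase Hog1 and *MET15*. Asynchronous cultures in synthetic medium received ET buffer (ethanol with Tween-20) or 1 μg/ml FK506 for 15 minutes, and 200 mM CaCl2 was then added. Libraries labelled replicate 1 and replicate 2 came from separate time courses, and RNA was taken from whole cultures, so a change in the mix of cells and a change in RNA per cell cannot be told apart. Differences are given as log2 of FK506 over ET, so a positive value means a higher level in FK506-treated cells. Levels are in CPM, the count of a gene scaled to the total of its library.

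Calcineurin (CN) is a phosphatase that calcium and calmodulin activate, and FK506 inhibits it as a complex with the binding protein Fpr1. In yeast, CaCl2 stress activates CN together with the general stress program, which induces protective genes and shuts down genes for ribosome production. Ribosome production depends on RNA polymerase I, which makes the large ribosomal RNA, and on assembly factors that process this RNA and fold it with ribosomal proteins. The promoters of the assembly factor genes often carry the PAC and RRPE elements, which the repressors Tod6, Dot6 and Stb3 bind. Sulfur assimilation genes, which supply methionine and cysteine, are controlled by Met4 with Cbf1, which binds the E-box CACGTG, and with Met31 and Met32.

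Total counts at 30 minutes were 11269470 and 11848993 in ET and 11317090 and 11837883 in FK506, and scaling factors (TMM) lay between 1.05 and 1.088. *HOG1* had 0 counts in each of these libraries, which allows at most 0.266 CPM (counting error only), and *CRZ1* had 1 count in 1 FK506 library. The mating-type label was checked with 7 a-specific genes, whose summed level was 3381 to 4790 CPM at 30 minutes, against 102.5 to 121.7 CPM for 4 alpha-specific genes, none of which was at 0. Genes of meiosis, 10 in all, summed to 162.6 to 167.4 CPM. The FK506 libraries differed from each other by more than the ET libraries did, with a chi-square per degree of freedom over features of 10.1 against 5.4.

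Promoters of 7 genes are shown first because they carry the elements that the results below refer to. Each window runs from 250 bases before to 50 bases after the start of the reading frame, 5′ to 3′ on the strand of the gene, from RefSeq build R64, and capitals mark the named element on either strand. Within each group the genes shown are those with the largest difference whose window holds the element, so they were chosen after their values were seen. For genes that were higher in FK506, *RPA43* (chrXV:960133-960432, minus strand) and *UTP6* (chrIV:1358853-1359152, minus strand) have PAC (GATGAG) and RRPE (AAAATTTT) in capitals. These begin 182 and 156 bases before the start in *RPA43*, and RRPE precedes PAC in *UTP6*, at 129 and 105 bases.
*RPA43*: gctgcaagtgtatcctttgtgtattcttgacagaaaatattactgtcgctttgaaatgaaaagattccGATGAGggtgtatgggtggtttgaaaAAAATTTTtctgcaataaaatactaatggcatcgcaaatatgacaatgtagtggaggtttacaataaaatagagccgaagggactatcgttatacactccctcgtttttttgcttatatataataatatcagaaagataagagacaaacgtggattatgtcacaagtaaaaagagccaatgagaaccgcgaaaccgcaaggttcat
*UTP6*: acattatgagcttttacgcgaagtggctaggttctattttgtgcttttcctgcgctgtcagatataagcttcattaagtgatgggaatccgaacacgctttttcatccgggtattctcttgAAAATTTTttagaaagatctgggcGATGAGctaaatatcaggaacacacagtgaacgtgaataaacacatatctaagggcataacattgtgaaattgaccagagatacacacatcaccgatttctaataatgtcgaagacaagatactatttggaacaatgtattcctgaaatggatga
For sulfur genes that were lower in FK506, *MET14* (chrXI:439336-439635, minus strand) has the E-box once, 228 bases before the start, and *MET10* (chrVI:213062-213361, plus strand) has it at 249 and 231 bases.
*MET14*: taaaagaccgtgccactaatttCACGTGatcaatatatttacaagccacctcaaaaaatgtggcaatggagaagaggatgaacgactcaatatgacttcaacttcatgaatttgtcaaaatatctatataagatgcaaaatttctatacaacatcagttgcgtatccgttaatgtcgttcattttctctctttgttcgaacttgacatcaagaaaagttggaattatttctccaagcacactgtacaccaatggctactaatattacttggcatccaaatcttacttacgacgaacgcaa
*MET10*: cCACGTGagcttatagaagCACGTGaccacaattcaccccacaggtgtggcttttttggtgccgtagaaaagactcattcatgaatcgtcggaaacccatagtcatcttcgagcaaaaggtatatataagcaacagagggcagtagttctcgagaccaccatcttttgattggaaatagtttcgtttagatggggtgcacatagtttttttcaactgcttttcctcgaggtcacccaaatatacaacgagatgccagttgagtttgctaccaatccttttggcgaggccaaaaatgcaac
The stress gene *HSP42* (chrIV:806371-806670, plus strand), also lower, has the stress element STRE (AGGGG), which Msn2 and Msn4 bind, at 3 positions between 212 and 182 bases before the start.
*HSP42*: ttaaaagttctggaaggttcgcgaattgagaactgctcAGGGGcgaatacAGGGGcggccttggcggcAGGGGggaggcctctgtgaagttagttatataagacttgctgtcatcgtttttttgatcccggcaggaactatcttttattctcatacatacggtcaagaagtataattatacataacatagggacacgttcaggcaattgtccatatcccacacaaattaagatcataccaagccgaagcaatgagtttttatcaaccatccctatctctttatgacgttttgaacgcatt
From the cell cycle genes that were higher in FK506, *ALK1* (chrVII:454535-454834, plus strand) has a forkhead element (GTAAACA), and *RTT107* (chrVIII:402716-403015, plus strand) has the MCB element (ACGCGT), bound by MBF.
*ALK1*: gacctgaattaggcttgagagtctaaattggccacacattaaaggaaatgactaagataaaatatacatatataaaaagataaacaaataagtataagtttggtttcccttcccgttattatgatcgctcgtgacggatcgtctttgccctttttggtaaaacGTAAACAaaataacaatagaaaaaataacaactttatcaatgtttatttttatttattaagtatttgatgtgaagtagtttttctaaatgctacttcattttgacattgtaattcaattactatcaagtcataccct
*RTT107*: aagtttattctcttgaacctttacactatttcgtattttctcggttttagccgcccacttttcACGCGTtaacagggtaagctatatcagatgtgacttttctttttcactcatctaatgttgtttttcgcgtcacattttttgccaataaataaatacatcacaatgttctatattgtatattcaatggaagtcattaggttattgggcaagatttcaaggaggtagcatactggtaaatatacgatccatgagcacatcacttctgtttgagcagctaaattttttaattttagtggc

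At 30 minutes 1370 of the 6206 genes tested (22.1%) were higher in FK506 and 1219 (19.6%) were lower (limma voom, Benjamini-Hochberg adjusted p under 0.05). Most of these differences were small. The median size over called genes was 0.37 on the log2 scale, and 1780 of the 2589 called genes differed by less than 0.5. Large differences lay mostly on the higher side, with 163 genes (2.63%) higher by at least 1 on the log2 scale and 35 (0.564%) lower by as much. The median over all genes tested was -0.01. Both FK506 libraries lay above both ET libraries for 37% of the genes tested and below them for 30%. For 2 against 2 libraries the smallest two-sided p of an exact permutation test is 0.333, and the limma calls therefore draw on the spread estimated from all 16 libraries. The number of lower genes was 805 without FK506 replicate 2, and the number lower by at least 1 was 57 without FK506 replicate 1. Subtracting the difference already present at 0 minutes gave 264 genes higher and 69 lower by at least 1.

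**Figure D1:**
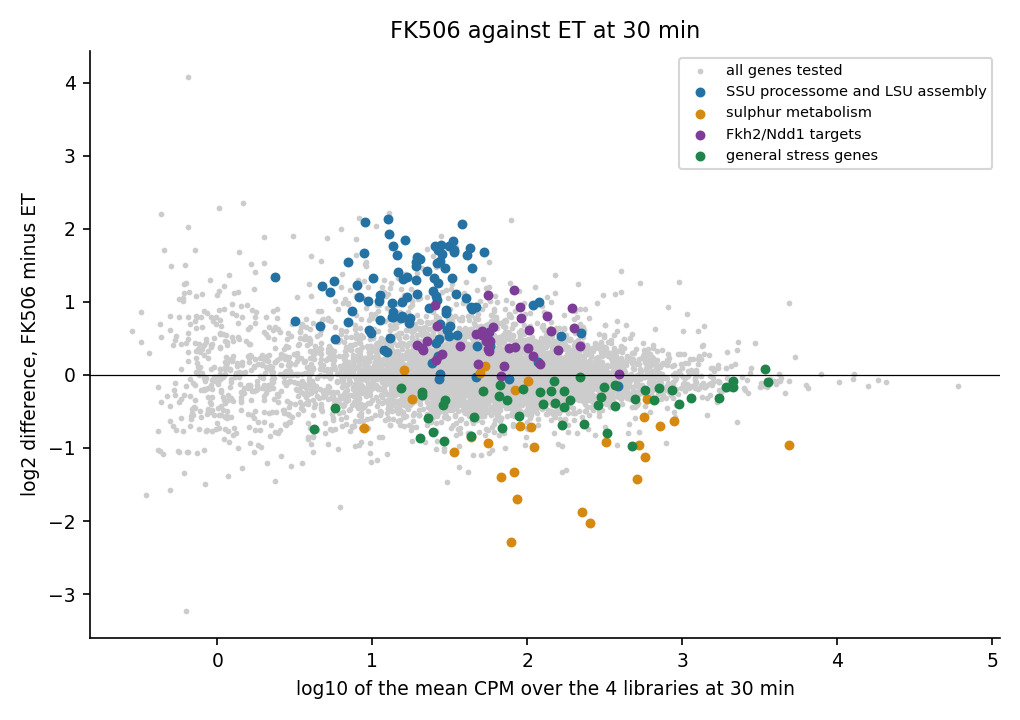
Log2 difference at 30 minutes (FK506 minus ET, y axis) against log10 of the mean CPM over the 4 libraries (x axis) for the 6206 genes tested, with 4 groups of lists in color. Assembly factors of both ribosomal subunits reached 2.13, sulfur genes reached -2.29, and most genes lay close to the median of -0.01.

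Genes for ribosome production made up most of the largest positive differences. This ranking covered annotated genes with a mean of at least 30 counts at 30 minutes and no overlap between the groups. *RPA43* (YOR340C, chromosome XV, 959202 to 960182), a subunit of RNA polymerase I, was at 4.88 and 4.05 CPM in ET and at 18.7 and 23.9 CPM in FK506. Both FK506 libraries lay far above both ET libraries, by 2.21 on the log2 scale (SE 0.33, limma adjusted p = 7.1e-05). *UTP6* (YDR449C, chromosome IV, 1357580 to 1358902), a subunit of the SSU processome that cuts the ribosomal RNA precursor, had 4.53 and 4.64 CPM in ET and 17.9 and 23.5 CPM in FK506. Its difference was 2.13 (SE 0.22, limma adjusted p = 1.5e-06). *UTP13* (YLR222C, chromosome XII, 579318 to 581771), of the same complex, had 13.1 and 15.5 CPM in ET against 55.0 and 68.3 CPM in FK506, a difference of 2.07 (SE 0.18, limma adjusted p = 3.4e-07). The ribosomal protein gene *RPS9A* (YPL081W, chromosome XVI, 404950 to 406044) was at 25.6 and 31.5 CPM in ET and at 107.8 and 147.2 CPM in FK506, a difference of 2.12 (SE 0.16, limma adjusted p = 6.0e-08). Among the 12 genes with the largest positive differences within these limits, 9 were RNA polymerase I factors, assembly factors or this ribosomal protein gene. The other 3 were *ATC1* at 2.14, *YPL080C* at 2.03 and the transfer RNA methyltransferase *TRM11* at 2.0. *YPL080C* is annotated at 406172 to 406498 of chromosome XVI, just past *RPS9A* on the opposite strand. Groups that did not overlap were a condition for these 12 genes. In each of them FK506 replicate 2 was above FK506 replicate 1.

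**Figure D2:**
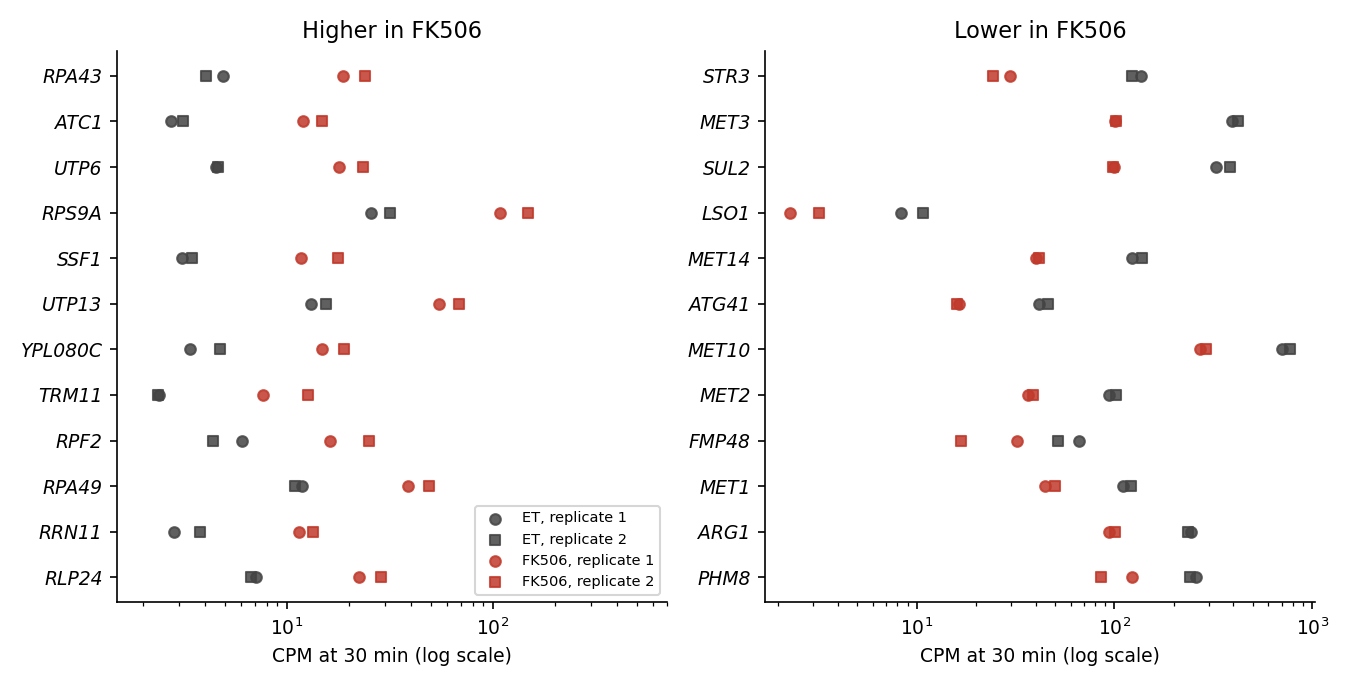
CPM at 30 minutes (x axis, log scale), with 1 point for each library. The 12 genes with the largest positive difference (FK506 minus ET) are on the left and the 12 with the largest negative one on the right. These are called, annotated genes with a mean of at least 30 counts and groups that did not overlap. Gray points are ET and red points FK506, circles are replicate 1 and squares replicate 2. The gap between red and gray points was a condition of the selection. *RPA43* lies at 18.7 and 23.9 CPM in FK506 against 4.88 and 4.05 CPM in ET.

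Most assembly factors were higher. For the SSU processome, 45 of 49 genes were higher in FK506 and 0 were lower, with a median difference of 1.02 and a range from 0.31 to 2.13, against 22.1% higher over all genes tested. No member of this list lay below 0. Of 52 factors that assemble the large subunit (LSU), 40 were higher and 0 were lower, with a median of 1.04. *RLP24*, a component of the precursor of the large subunit, was at 7.10 and 6.67 CPM in ET and at 22.4 and 28.5 CPM in FK506. *SSF1* was at 3.11 and 3.46 CPM in ET and at 11.7 and 17.7 CPM in FK506, although 4.04% of its 50-base windows occur elsewhere in the genome. All 12 core proteins of the small nucleolar RNPs (snoRNPs), which modify ribosomal RNA, were higher, with *NOP58* at 1.54, *NHP2* at 1.27 and the pseudouridine synthase *CBF5* at 1.18. The median of the SSU processome was 0.84 between libraries of replicate number 1 and 1.32 between those of replicate number 2, and that of LSU assembly was 0.76 and 1.29.

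RNA polymerase genes differed among themselves. For RNA polymerase I, 8 of 11 genes were higher (72.7%, against 22.1% over all genes tested). Next to *RPA43*, *RPA49* was at 1.90 and the initiation factor *RRN11* at 1.87. The *RRN11* values were 2.84 and 3.80 CPM in ET and 11.5 and 13.4 CPM in FK506. The 3 members that did not pass the test were *RRN6* at -0.16, *RPA135* at 0.23 and *RPA14* at 0.31. For RNA polymerase III, which makes transfer RNAs and 5S RNA, 8 of 17 genes were higher (47.1%), led by the subunits *RPC53* at 1.08 and *RPC25* at 0.96. Its 7 genes with values between -0.09 and 0.15 were the TFIIIC subunits and *BRF1*, which act in initiation, and none of them passed the test.

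Ribosomal proteins and translation factors shifted by less. For ribosomal proteins, 96 of 134 genes were higher (71.6%, against 22.1% over all genes tested) and 1 was lower (0.746%, against 19.6%). The median difference was only 0.27, and 4 genes reached 1. Besides *RPS9A* these included *RPL22B* at 1.46 and *RPL27B* at 1.20. *RPL27B* was at 68.4 and 65.1 CPM in ET and at 137.8 and 177.4 CPM in FK506. The exception was *RPL15B*, at -0.32 (SE 0.08, limma adjusted p = 0.0030), for which 11.8% of the 50-base windows are repeated. Many ribosomal proteins are encoded by near-identical gene pairs whose reads are hard to separate, so values of single genes in this list are uncertain. For translation factors 22 of 33 genes were higher (66.7%) and 0 were lower. *NIP1*, a subunit of eIF3, was at 0.99 and *TIF4631*, the scaffold eIF4G, at 0.78.

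Regulators of ribosome genes held calls in both directions. Of 11 genes, 4 were higher (36.4%, against 22.1% over all genes tested) and 4 were lower (36.4%, against 19.6%). The number higher was 2 without ET replicate 2 or FK506 replicate 2, and the number lower was 2 without ET replicate 2 or either FK506 library. The repressor *STB3* had 179.2 and 193.3 CPM in ET and 109.3 and 109.5 CPM in FK506. Both FK506 libraries lay below both ET libraries, with a log2 difference of -0.80 (SE 0.07, limma adjusted p = 3.3e-07). The corepressor *CRF1* was also lower, at -0.50. *RAP1*, which binds ribosomal protein promoters, was higher at 0.62, and the kinase *SCH9* was higher at 0.43. The activator *IFH1* was at 0.51, with a call that was lost without ET replicate 2 (adjusted p = 0.057) or without FK506 replicate 2 (adjusted p = 0.094). *SFP1* and the repressor *TOD6* did not pass the test, at -0.04 (SE 0.07) and 0.23 (SE 0.27). *DOT6* was at -0.20 with a limma adjusted p of 0.042, and its call was lost without any single one of the 4 libraries (adjusted p from 0.056 to 0.19).

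**Figure D3:**
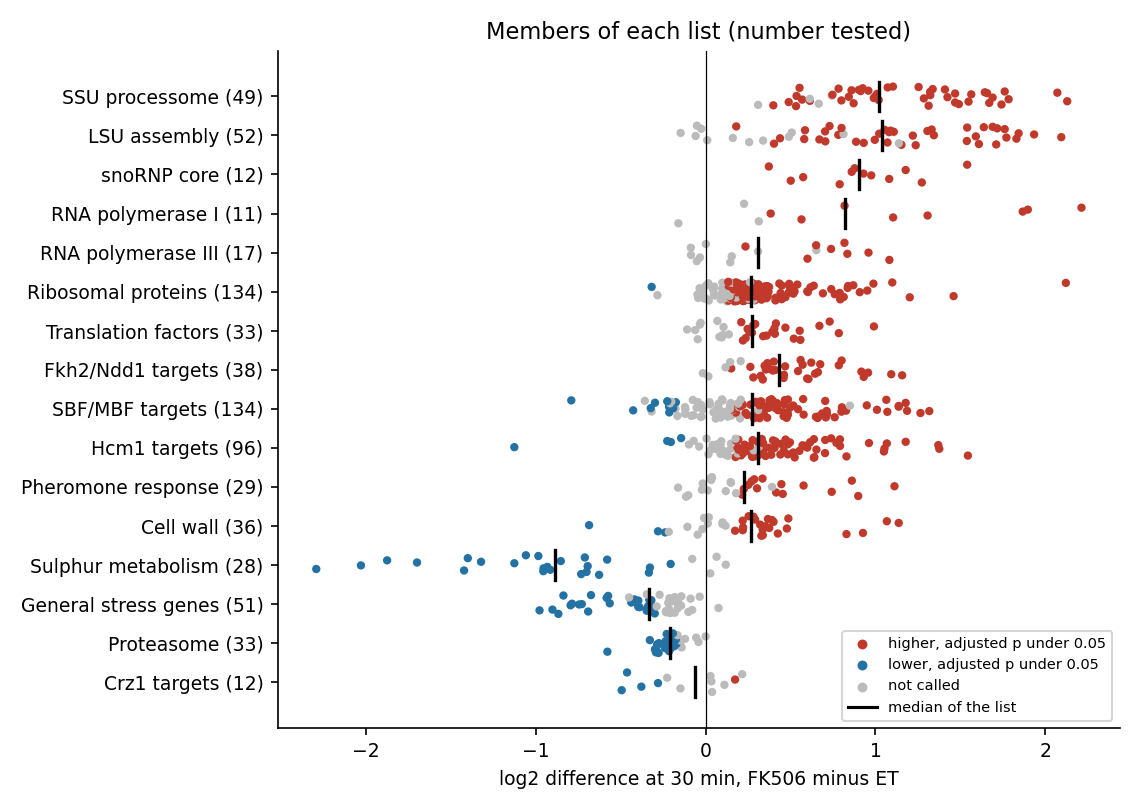
Log2 difference at 30 minutes (x axis) of every tested member of 16 lists, 1 point per gene, with the number tested in parentheses and a black bar at the median of the list. Red points were higher and blue points lower with an adjusted p under 0.05, and gray points did not pass. The SSU processome (median 1.02) and sulfur metabolism (median -0.88) lie at opposite ends.

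PAC, RRPE and other elements were counted in the promoters of the called genes. PAC occurred in 29.6% and RRPE in 20.3% of 1347 promoters of higher genes, against 19.9% and 9.26% of 5744 promoters of all genes tested. Both elements together were in 13.1% of the higher genes and 4.53% of all. Among 153 promoters of genes higher by at least 1, the shares were 64.7% and 54.2%, and 47.1% held both elements. Within the lists, PAC was found in 87.8% of SSU processome and 92.3% of LSU assembly promoters. Ribosomal protein promoters held PAC in only 10.9% and RRPE in 6.52% of cases, below the shares of all genes tested. STRE showed the opposite distribution, in 32.6% of the promoters of lower genes and 13.2% of those of higher genes, against 21.8% of all. The forkhead element occurred in 10.8% of higher and 3.88% of lower genes, and MCB in 5.35% and 1.86%. The Rpn4 element (GGTGGCAAA), bound by the activator of proteasome genes, was found in 3.46% of lower genes against 1.24% of all. A match is a description of the sequence only.

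**Figure D4:**
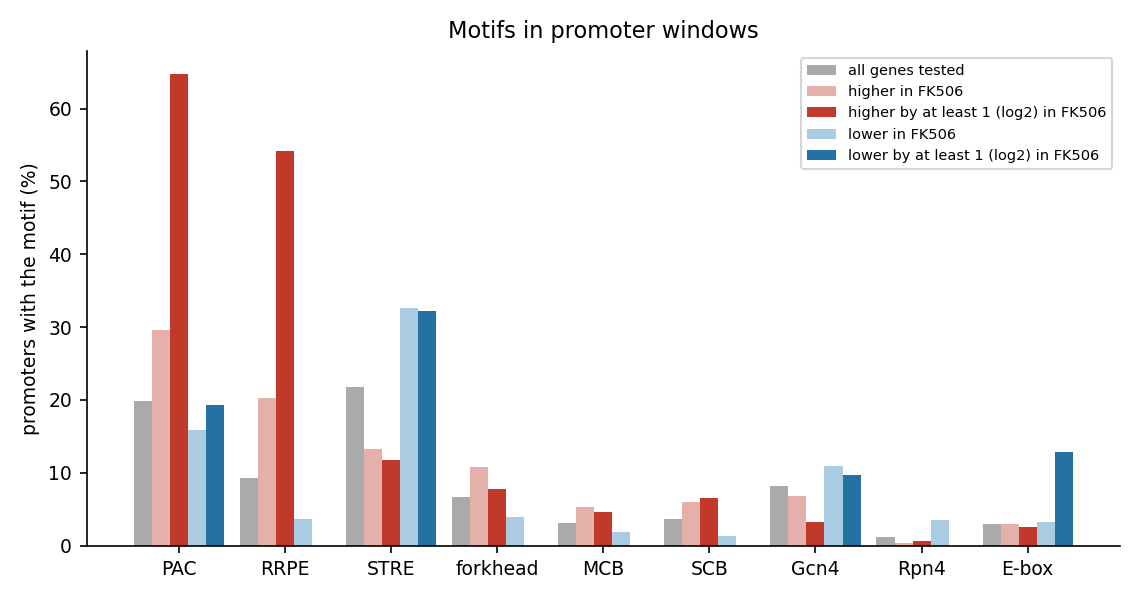
Share of promoter windows (y axis, percent) that hold each of 9 elements on either strand, for all genes tested and for genes called higher or lower in FK506 at 30 minutes, at any size or by at least 1 on the log2 scale. PAC and RRPE stand at 64.7% and 54.2% among the genes higher by at least 1.

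Sulfur metabolism had the lowest median of the 37 lists. Of 28 genes tested, 24 were lower in FK506 and 0 were higher, with a median difference of -0.88, against 19.6% lower over all genes tested, and 9 of the 35 genes that were lower by at least 1 came from this list. *MET3* (YJR010W, chromosome X, 456239 to 457774), the ATP sulfurylase that starts sulfate assimilation, had 394.1 and 419.4 CPM in ET and 101.0 and 102.4 CPM in FK506. The groups were wide apart and the replicates close, with a difference of -2.03 (SE 0.10, limma adjusted p = 4.6e-10). *STR3* (YGL184C, chromosome VII, 154615 to 156012), a cystathionine beta-lyase, had 135.9 and 122.7 CPM in ET and 29.6 and 24.3 CPM in FK506, a difference of -2.29 (SE 0.11, limma adjusted p = 5.1e-10). *SUL2* (YLR092W, chromosome XII, 323544 to 326225), a sulfate permease, had 325.7 and 384.5 CPM in ET and 99.3 and 98 CPM in FK506, a difference of -1.88 (SE 0.11, limma adjusted p = 3.3e-09). The pathway was lower at successive steps, with the kinase *MET14* at -1.70, the sulfite reductase subunits *MET10* at -1.42 and *MET5* at -1.13, and the siroheme enzyme *MET1* at -1.32. *MET2*, which makes O-acetylhomoserine, was at -1.40. The members that did not pass the test were the regulators *MET4* at -0.08, *MET31* at 0.06 and *CBF1* at 0.12, and the permease *SUL1* at 0.03. *MET28* had too few counts to be tested. The summed level of the list was 14480 and 14290 CPM in ET and 8006 and 7644 CPM in FK506. The median was -0.79 between libraries of replicate number 1 and -0.93 between those of number 2.

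The E-box CACGTG occurred in 31.0% of the 29 promoters of this list, against 2.94% of the promoters of all genes tested, and AACTGTGG, bound by Met31 and Met32 and added after the values were seen, in 20.7% against 0.871%. *MET14* and *MET10*, shown above, were at 122.8 and 138.2 CPM and at 706.6 and 773.9 CPM in ET. In FK506 they were at 40.3 and 41.6 CPM and at 270.9 and 292.2 CPM.

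Amino acid synthesis genes did not move together. Of 44 genes tested, 17 were lower (38.6%, against 19.6% over all genes tested) and 9 higher (20.5%, against 22.1%), with a median of -0.04. *ARG1* (YOL058W, chromosome XV, 219211 to 220473), the argininosuccinate synthase, was at 243.2 and 234.4 CPM in ET and at 93.4 and 101.3 CPM in FK506, a difference of -1.32 (SE 0.06, limma adjusted p = 4.6e-10). The lysine gene *LYS20* was lower at -0.80, although 37.8% of its 50-base windows are repeated. In contrast *ILV5*, of branched-chain amino acid synthesis, was at 533.4 and 561.4 CPM in ET and 1230 and 1471 CPM in FK506, a difference of 1.27 (SE 0.07, limma adjusted p = 3.4e-09). *GCN4*, the activator of this pathway, was higher at 0.38. *GLN1*, the glutamine synthetase, was higher at 0.60, and *LYS4* at 0.69.

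About as many general stress genes were lower as did not pass the test. Of 51 genes tested, 27 were lower in FK506 and 0 were higher, against 19.6% lower over all genes tested. The median was -0.33, with -0.16 between libraries of replicate number 1 and -0.46 between those of number 2, and 50 of the 51 values lay below 0. Without FK506 replicate 2 the number of lower genes was 16. The small heat shock protein *HSP42* (YDR171W, chromosome IV, 806621 to 807748) had 626.5 and 614.7 CPM in ET and 355.9 and 290.8 CPM in FK506, a difference of -0.98 (SE 0.10, limma adjusted p = 2.2e-06). *CYC7*, the stress isoform of cytochrome c, was at -0.90 and *MOH1* at -0.87. *HSP12*, which encodes an abundant membrane-protecting protein, had 2036 and 1957 CPM in ET and 1995 and 1652 CPM in FK506. These ranges overlapped, and its difference of -0.16 did not pass the test (SE 0.11, limma adjusted p = 0.24). The activator *MSN4* was lower at -0.48. *MSN2* was at 0.20, a call that was lost without any single one of the 4 libraries (adjusted p from 0.060 to 0.27).

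For trehalose and glycogen metabolism, 9 of 18 genes were lower and 2 higher, against 19.6% and 22.1% over all genes tested. The trehalose synthase subunit *TSL1* was at -0.64 and the trehalase *NTH1* at -0.57, while the glycogen initiator *GLG2* was at 0.73. The number higher was 1 without any single one of the 4 libraries. *TSL1* was at 2714 and 2729 CPM in ET and at 2008 and 1584 CPM in FK506. The phosphatase *PHM8* (YER037W, chromosome V, 225889 to 226854) was at 258.2 and 240.6 CPM in ET and at 123.3 and 85.4 CPM in FK506, a difference of -1.31 (SE 0.10, limma adjusted p = 6.4e-08). Other genes among the 12 with the largest negative differences were *LSO1* at -1.81, *ATG41*, needed for autophagy, at -1.47, and *FMP48* at -1.33. *FMP48* was the gene of this group whose FK506 libraries differed most, at 32.1 and 16.8 CPM. For chaperones, 11 of 25 genes were lower (44.0%) and 2 higher (8.0%), against 19.6% and 22.1% over all genes tested, with the mitochondrial disaggregase *HSP78* at -0.71. The J-protein gene *JJJ3* was at 2.36 (SE 0.74, limma adjusted p = 0.017), with 0.18 and 0.84 CPM in ET and 2.30 and 2.53 CPM in FK506. It had a mean of 17 counts, and its call was lost without ET replicate 1 (1.09, adjusted p = 0.29) or FK506 replicate 1 (adjusted p = 0.053). The number higher was 0 or 1 without ET replicate 2 or either FK506 library.

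Proteasome genes were lower in FK506 by a small and even margin. Of 33 genes tested, 26 were lower in FK506 (78.8%, against 19.6% over all genes tested) and 0 were higher (against 22.1%). The median was -0.21, and all but 1 value lay below 0. Without FK506 replicate 2 the number of lower genes was 17. Their activator *RPN4* (YDL020C, chromosome IV, 415113 to 416708) had 273.8 and 263.7 CPM in ET and 187.5 and 179.7 CPM in FK506, a difference of -0.58 (SE 0.06, limma adjusted p = 1.2e-06). The ATPase subunit *RPT1* was at -0.33 and the lid subunit *RPN9* at -0.30. Of oxidative phosphorylation genes 35.9% were lower and 5.13% higher, against 19.6% and 22.1% over all genes tested. For oxidative phosphorylation, 14 of 39 genes were lower and 2 higher, with a median of -0.12, but 2 were lower without FK506 replicate 2, 8 without ET replicate 1 and 7 without ET replicate 2. The number higher was 0 without either ET library and 1 without FK506 replicate 1.

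Many cell cycle genes were higher in FK506, with the largest share among the Fkh2/Ndd1 targets. Fkh2 with Ndd1 activates genes of the G2/M transition, G1/S genes depend on SBF and MBF, and Hcm1 acts on S phase genes. The lists of targets came from the supplementary lists of the study. Of 38 Fkh2/Ndd1 targets, 33 were higher (86.8%, against 22.1% over all genes tested) and 0 were lower (against 19.6%). The median was 0.43, and 37 values lay above 0. *CLB2* (YPR119W, chromosome XVI, 771653 to 773128), the main mitotic cyclin, was at 90.2 and 102.5 CPM in ET and at 170.9 and 171.1 CPM in FK506, a difference of 0.80 (SE 0.06, limma adjusted p = 9.7e-08). *CLB1*, the second cyclin of this pair, was at 1.09, *CDC5*, the Polo kinase, at 0.78, and *CDC20*, an activator of the anaphase-promoting complex, at 0.46. *ALK1*, a haspin kinase, had the largest difference of the list, 1.16 on the log2 scale. It was at 48.3 and 52.1 CPM in ET and at 108.7 and 119.7 CPM in FK506. The 5 members that did not pass the test were *MOB1*, *NUM1*, *BUD8*, *KIP2* and *RLF2*, with values from -0.02 to 0.21. When the difference at 0 minutes was subtracted, 21 of the 38 were higher. At 0 minutes itself the median of the list was 0.004, with 0 members called higher and 0 lower.

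The regulators of this phase differed from each other. *FKH2* was at 30.5 and 25.8 CPM in ET and at 50.9 and 60.6 CPM in FK506, a difference of 0.96 (SE 0.12, limma adjusted p = 1.1e-05). *FKH1* was at 33.5 and 38.4 CPM in ET and at 73.9 and 78.1 CPM in FK506, a difference of 1.05 (SE 0.10, limma adjusted p = 1.0e-06). *NDD1* was higher by 0.40 (SE 0.07), whereas *MCM1*, the partner of Fkh2 at these promoters, was at 0.08 (SE 0.08, limma adjusted p = 0.47). *SWI5*, which acts at mitotic exit, was at 0.93.

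G1/S genes leaned higher, though not all of them did. Of the SBF/MBF targets 56.0% were higher and 7.46% lower, against 22.1% and 19.6% over all genes tested. Of 134 SBF/MBF targets, 75 were higher and 10 lower, with a median of 0.27, and 47 were higher without FK506 replicate 2 and 6 lower without FK506 replicate 1. *RNR1* (YER070W, chromosome V, 298950 to 301616), the large subunit of ribonucleotide reductase, was at 280.8 and 337.3 CPM in ET and at 674.8 and 842.5 CPM in FK506, a difference of 1.26 (SE 0.07, limma adjusted p = 2.5e-09). The S phase cyclins *CLB6* and *CLB5* were at 1.07 and 0.48. For the G1 cyclins *CLN1* and *CLN2* no difference was detected, with *CLN1* at 161.3 and 167.4 CPM in ET and 153.0 and 176.7 CPM in FK506. Its difference was -0.03 (SE 0.06, limma adjusted p = 0.76), and that of *CLN2* was -0.08 (SE 0.06, limma adjusted p = 0.35). The repressor gene *YOX1* was at 0.15 (SE 0.07, limma adjusted p = 0.13). *SVS1*, a cell wall gene, was lower at -0.79, and *AXL2*, a bud site marker, at -0.43. *CLN3*, *SWI4*, *WHI5* and *SWE1* were at 0.18, 0.24, 0.41 and 0.16, and the calls of *CLN3* and *WHI5* were lost without either ET library or FK506 replicate 1, that of *SWI4* without any single library, and that of *SWE1* without either ET library or FK506 replicate 2. The adjusted p then reached 0.18 for *CLN3* without ET replicate 1, 0.16 for *SWI4* without ET replicate 2, 0.13 for *WHI5* without ET replicate 2 and 0.39 for *SWE1* without FK506 replicate 2.

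For Hcm1 targets, 65 of 96 genes were higher and 4 lower, with a median of 0.31, and 2 were lower without ET replicate 2 or FK506 replicate 2. The shares higher and lower were 67.7% and 4.17%, against 22.1% and 19.6% over all genes tested. *HCM1* itself was at 338.0 and 339.6 CPM in ET and at 333.2 and 344.4 CPM in FK506, a difference of -0.03 (SE 0.06, limma adjusted p = 0.75). The fatty acid elongase *ELO3* was at 77.3 and 89.5 CPM in ET and at 200.2 and 240.3 CPM in FK506, a difference of 1.37. The sulfite reductase gene *MET5*, lower at -1.13, is a member of this list too. For the Mcm cluster, whose genes peak at the M/G1 boundary, 19 of 37 were higher and 5 lower (3 without ET replicate 1 or either FK506 library), with the helicase subunit *MCM7* at 1.15 and *MRH1*, a membrane protein, at 1.42. Of the Mcm cluster 51.4% were higher and 13.5% lower, against 22.1% and 19.6% over all genes tested. The CDK inhibitor *SIC1* was at 0.25. Histones were higher in 7 of 10 cases (70.0%, against 22.1% over all genes tested) with a median of 0.29, but in 3 without ET replicate 1.

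Of 29 pheromone response genes, 15 were higher in FK506, 0 were lower and 14 did not pass the test, against 22.1% higher over all genes tested. The median was 0.22, with 0.30 between libraries of replicate number 1 and 0.13 between those of number 2. *FAR1* (YJL157C, chromosome X, 123836 to 126328), the CDK inhibitor of pheromone arrest, had 214.7 and 246.9 CPM in ET and 515.9 and 500.3 CPM in FK506, a difference of 1.11 (SE 0.07, limma adjusted p = 5.1e-09). *FIG1*, a regulator of calcium entry during mating, was at 0.90, and the a-factor gene *MFA2* was at 0.86. Of the 7 a-specific genes, 6 were higher, with the agglutinin subunit *AGA2* at 0.74. *STE12*, the TF of the pathway, was at 399.6 and 441.2 CPM in ET and at 430.4 and 413.6 CPM in FK506, with overlap between the groups and a difference of -0.02 (SE 0.06, limma adjusted p = 0.80). Among the alpha-specific genes, *MF(ALPHA)1* was at 1.69 and 2.95 CPM in ET and at 6.18 and 4.82 CPM in FK506, a call that was lost without ET replicate 1 (adjusted p = 0.10).

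Cell wall genes were mostly higher, with 23 of 36 higher and 3 lower (1 without ET replicate 1) and a median of 0.27. The shares higher and lower were 63.9% and 8.33%, against 22.1% and 19.6% over all genes tested. *EXG1* (YLR300W, chromosome XII, 728955 to 730301), an exoglucanase, was at 229.4 and 270.4 CPM in ET and at 526.8 and 592.8 CPM in FK506, a difference of 1.14 (SE 0.07, limma adjusted p = 3.3e-09). *GAS3* was at 1.07 and the structural protein *SED1* at 0.93. *PIR3* was lower at -0.69, a call that was lost without ET replicate 2 (adjusted p = 0.051).

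Transporter lists held calls in both directions. Among hexose transporters 7 of 19 were higher (4 without ET replicate 1) and 7 lower, against 22.1% and 19.6% over all genes tested. *HXT7* was at 117.0 and 130.5 CPM in ET and at 327.2 and 275.4 CPM in FK506, and *HXT6* was at 8.52 and 8.78 CPM and at 28.4 and 19.0 CPM, but 95.1% of the 50-base windows of each are repeated, so reads of this near-identical pair may have been assigned to either gene. *HXT1* and *HXT5* were lower, at -1.04 and -0.97, and *GAL2* was at -0.90. The phosphate transporter *PHO90* was higher at 1.21, with 30.4 and 37.1 CPM in ET and 71.0 and 88.0 CPM in FK506. For iron uptake 6 of 24 genes were higher and 7 lower (4 without FK506 replicate 2), which is 25% and 29.2% and near the shares over all genes, with the multicopper oxidase *FET3* at 0.60. The drug pumps *PDR5* and *YOR1* were at 0.44 and 0.37 at 30 minutes. When the difference at 0 minutes was subtracted these became -0.31 (limma adjusted p = 0.016) and -0.19 (limma adjusted p = 0.11).

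For *FPR1* and the genes of CN itself no difference was detected. *FPR1* was at 401.6 and 430.6 CPM in ET and at 409.7 and 363.3 CPM in FK506, with overlapping groups and a difference of -0.14 (SE 0.08, limma adjusted p = 0.17). The catalytic subunits *CNA1* and *CMP2* were at 0.06 and -0.12, the regulatory subunit *CNB1* at -0.21 and the regulator *RCN1* at -0.23, and none of these passed the test. Of 16 genes for CN and FK506 binding, 6 were lower (37.5%) and 0 higher, against 19.6% and 22.1% over all genes tested, led by the CN substrate *SLM1* at -0.48 and the kinase *CMK2* at -0.46. *SLM1* overlaps another annotated gene. Crz1 targets, in cells that lack Crz1, gave 4 lower (33.3%) and 1 higher (8.33%) of 12, with a median of -0.06, and 0 were higher without either ET library or FK506 replicate 2. The vacuolar calcium pump *PMC1* (YGL006W, chromosome VII, 485921 to 489442) had 391.4 and 409.3 CPM in ET and 326.1 and 302.7 CPM in FK506, a difference of -0.38 (SE 0.05, limma adjusted p = 4.1e-05).

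Osmotic response genes, in cells that lack Hog1, were 7 lower (31.8%) and 5 higher (22.7%) of 22, against 19.6% and 22.1% over all genes tested, with a median of -0.06, and 3 were lower without FK506 replicate 2. The number higher was 3 without ET replicate 1 or FK506 replicate 2. The glycerol transporter *STL1* was at 13.7 and 20.2 CPM in ET and at 18.5 and 16.8 CPM in FK506, with overlap and a difference of 0.04 (SE 0.15, limma adjusted p = 0.87). *GPD1*, of glycerol synthesis, was at -0.31, a call that was lost without FK506 replicate 2 (adjusted p = 0.067). *STE11*, a kinase shared with the mating pathway, was lower at -0.55, and the glycerol phosphatase *GPP1* was higher at 0.42. *LEU2*, the marker that replaces *HOG1*, was at 0.10 (SE 0.07, limma adjusted p = 0.30).

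The direct difference was then set beside the same difference at the other times, which use other libraries of the same cultures. At 0 minutes, before CaCl2, 42 genes (0.677%) were higher in FK506 and 67 (1.08%) lower, and at 10 minutes 193 (3.11%) were higher and 197 (3.17%) lower. At 60 minutes 2007 genes (32.3%) were higher and 1884 (30.4%) lower. Of the 1370 genes higher at 30 minutes, 1159 were also higher at 60 minutes, 42 were lower and 169 were not called. These 1159 are 84.6% of the genes higher at 30 minutes and 57.7% of those higher at 60 minutes. Of the 1219 genes lower at 30 minutes, 1000 were also lower at 60 minutes, which is 82.0% and 53.1% of the 2 sets. At 0 minutes only 5 of the 1370 and 2 of the 1219 were called in the same direction, and 49 and 21 were called in the opposite one. There were 306 genes called at 30 minutes and at no other time, 148 higher and 158 lower.

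**Figure D5:**
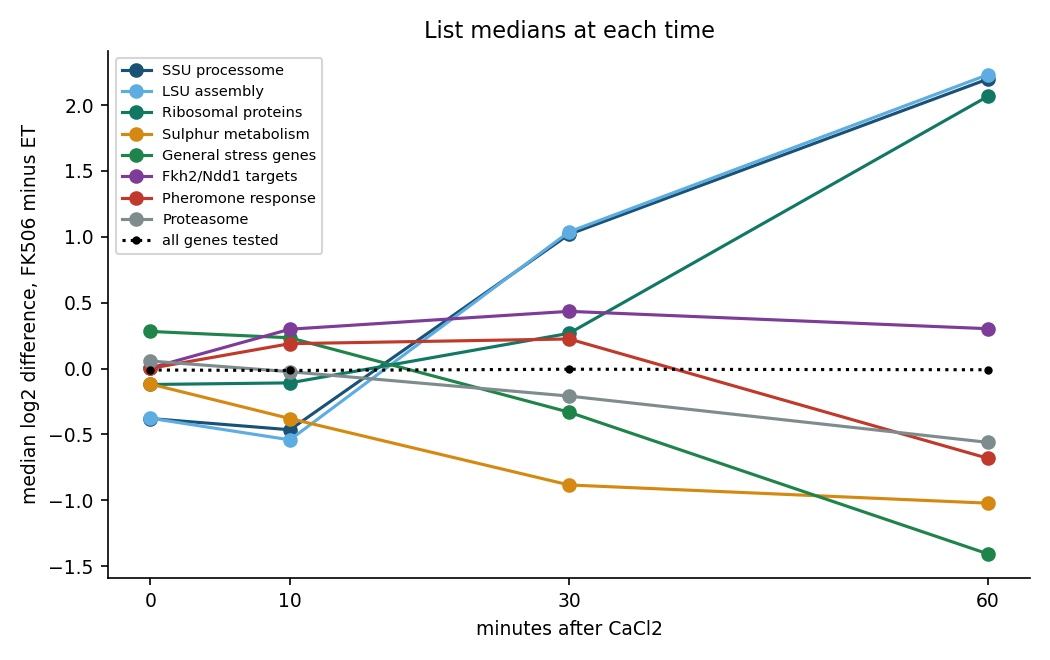
Median log2 difference (FK506 minus ET, y axis) of 8 lists and of all genes tested (dotted) at 0, 10, 30 and 60 minutes after CaCl2 (x axis). The SSU processome goes from -0.38 and -0.46 to 1.02 and 2.20, and pheromone response from 0.22 at 30 minutes to -0.68 at 60 minutes.

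Differences between times were tested as interactions. The difference at 30 minutes lay above that at 0 minutes for 1104 genes (17.8%) and below it for 864 (13.9%). Against 10 minutes the numbers were 879 (14.2%) and 619 (9.97%), and against 60 minutes 835 (13.5%) and 943 (15.2%). Scaled by raw totals instead of TMM, the last pair became 1310 and 697, which moved the share above from 47.0% to 65.3%. SSU processome genes were on the other side of 0 before and early in the stress, with a median of -0.38 at 0 minutes and -0.46 at 10 minutes, and 46 of 49 had a difference at 30 minutes above that at 0 minutes. General stress genes had the opposite course, with medians of 0.28, 0.23, -0.33 and -1.41 at 0, 10, 30 and 60 minutes. For sulfur genes the medians were -0.12, -0.38, -0.88 and -1.02, and 22 of 28 were already lower at 10 minutes. Ribosomal proteins went from 0.27 at 30 minutes to 2.07 at 60 minutes, and 127 of 134 lay below their 60-minute difference. Pheromone response genes turned, with a median of 0.22 at 30 minutes and -0.68 at 60 minutes, where 26 of 29 were lower, and 28 of 29 differed between these times.

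Single genes showed these courses in CPM. *BRX1*, an LSU assembly factor, was at 145.9 and 130.5 CPM in ET at 0 minutes, at 5.59 and 6.16 CPM at 30 minutes and at 9.83 and 11.3 CPM at 60 minutes. In FK506 it was at 108.7 and 92.1 CPM, then 14.5 and 28.3 CPM, and then 89.3 and 91.0 CPM. At 10 minutes it was at 42.05 and 30.2 CPM in ET and at 27.4 and 21.0 CPM in FK506. The FK506 libraries were thus below ET at 0 and 10 minutes and above ET at 30 and 60 minutes. *RTC3*, a stress gene, was at 419.2 and 397.2 CPM in ET and 294.4 and 194.6 CPM in FK506 at 30 minutes, a difference of -0.79 (SE 0.12, limma adjusted p = 5.7e-05). By 60 minutes it was at 301.6 and 227.2 CPM in ET and at 37.7 and 26 CPM in FK506. *CLB2* in ET was at 147.9 and 153.7 CPM at 0 minutes and at 90.2 and 102.5 CPM at 30 minutes, while in FK506 it lay between 145.9 and 171.1 CPM over the 8 libraries. *MET3* and *ARG1* were added after their values were seen. *MET3* was at 56.3 and 73.9 CPM in ET and at 54.2 and 74.2 CPM in FK506 at 0 minutes, where the groups overlapped, and at 578.6 and 547.4 CPM against 59.0 and 58.0 CPM at 60 minutes. *ARG1* was at 111.4 and 112.7 CPM in ET and at 115.9 and 123.8 CPM in FK506 at 60 minutes, and its difference at 30 minutes minus that at 60 minutes was -1.5 (limma adjusted p = 7.9e-10).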

How the data were processed

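RNA-seq counts were analysed from 16 *crz1Δ hog1Δ* libraries (8 groups of 2). The authors made strand-specific, ribosomal RNA-depleted libraries and deposited unscaled gene-level counts. Reads were aligned with TopHat2 2.1.1 to R64-1-1. The methods name HTSeq and the submitters' processing notes name featureCounts (Subread 1.5.3) for counting. Groups came from the labels. Here limma 3.58.1 (voom, TMM from edgeR 4.0.16, R 4.3.3) was fitted to the 16 libraries after filterByExpr (10 counts) with terms for group and replicate number, and with the correlation within a time course (-0.117). The replicate number stands for the batch term of the study, which is not defined. The contrast was FK506 minus ET at 30 minutes, with BH adjustment over 6206 genes. The methods state biological duplicates of each time course and do not define them further. Members and lists were chosen with earlier results of these data known. Named genes were the 12 highest and 12 lowest called differences (at least 30 mean counts, groups not overlapping, annotated), the 3 largest per direction in each of 37 lists, and fixed regulators. Members named because they did not pass the test were chosen after their values were seen. Of 7126 features, 6048 matched RefSeq R64 by systematic name and 114 by symbol. On simulated 2-fold and 1.5-fold changes for this comparison (6167 genes), 50 of 50 and 47 of 50 raised genes and 49 of 50 and 39 of 50 lowered genes were called. The changed genes were drawn only from those above a minimum mean level. The simulated counts held no replicate effect and no other difference between groups, so these rates need not hold for the data or for genes with few counts. DESeq2 1.42.0, edgeR, other scalings and filters, and each left-out library were alternatives. Depth was 11221758 to 11970166 counts per library. Some named genes and 1 list are not reported here.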

Additional observations from a re-analysis of the deposited data

Results flagged for a closer look

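The FK506 minus ET difference depended on time, by tests of the interaction in the limma voom fit. It differed between 30 and 0 minutes for 1968 genes, between 30 and 10 minutes for 1498 and between 30 and 60 minutes for 1778. The 10 genes followed over time gave the values below as the difference at 30 minutes minus that at the other time, each with an adjusted p under 0.05. *CLB2* gave 0.83 against 0 minutes and 0.36 against 60 minutes, and *FKH2* gave 1.22 against 0 minutes and 0.60 against 10 minutes. *SWI5* gave 0.84, 0.42 and 0.35 against 0, 10 and 60 minutes. *CLN1*, which did not differ detectably at 30 minutes, gave -0.26 against 60 minutes, and *HSP12* gave 1.20. *RTC3* gave -1.36 against 0 minutes, -0.99 against 10 minutes and 2.17 against 60 minutes, and *PHM8* gave -1.65, -1.29 and 1.77. *NSR1*, a nucleolar protein, gave 1.79, 2.01 and -2.44, and *BRX1* gave 2.25, 2.35 and -1.41 in the same order. *FPR1* met no such test. Groups of 2 libraries are too small for a test of the gap between the farthest library and the others.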

How the results depend on the processing

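The 24 largest differences kept their calls in every alternative with a test, and 132 of 189 called named genes did so. Genes lower numbered 1219, and 805 to 1030 when 1 library was left out (805 without FK506 replicate 2). Genes lower by at least 1 numbered 35, and 38 to 57 in the same way (57 without FK506 replicate 1), and the comparison with 10 minutes gave 962 to 1493 genes in place of 1498 (962 without FK506 replicate 2). Subtracting the difference at 0 minutes gave 264 genes higher and 69 lower by at least 1, and turned *GAC1* to -0.023, *PDR5* to -0.31 and *YOR1* to -0.19. DESeq2 gave 1179 higher and 864 lower genes, and the edgeR quasi-likelihood test 1371 and 1155. Raw totals turned 3 genes that were not called, *HCM1* to 8.5e-05, *CLN1* to 0.0023 and *STE12* to 0.0061. Leaving out libraries or replicate numbers turned other uncalled genes, with ranges of -0.0022 to 0.17 for *LEU2*, -0.31 to 0.013 for *FPR1*, -0.51 to 0.032 for *RCN1*, -0.10 to 0.022 for *CLN1*, -0.12 to 0.54 for *TOD6*, -0.15 to 0.091 for *STE12* and -0.32 to 0.42 for *STL1*. The causes were not tested. Without the replicate block 1219 genes were higher and 1026 lower. Same-numbered ET and FK506 libraries deviated together by a correlation over 0.1 in 7 of 16 pairs of groups, and by 0.08 at 30 minutes, so the numbers are not shown to pair the libraries. They are in the main model only as the batch term of the study. Genes of a few CPM rest on few reads, as their larger SE shows (0.33 for *RPA43* against 0.10 for *MET3*).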

Other observations

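Lists not described above held calls in both directions, as did all genes tested (22.1% higher and 19.6% lower). Phosphate genes were 6 higher (26.1%) and 5 lower (21.7%) of 23, near these shares, with a median of 0.04. Ergosterol synthesis genes were 9 higher (34.6%) and 4 lower (15.4%) of 26, and purine synthesis genes 7 higher (41.2%) and 5 lower (29.4%) of 17. These counts were small enough to move with 1 library. Phosphate genes higher numbered 2 without ET replicate 1 and 3 without any other single library, and ergosterol genes higher numbered 3 without ET replicate 1. Of 10 calcium transport genes 3 were higher (30.0%) and 1 lower (10.0%). Guide and spliceosomal RNAs gave 2 higher and 5 lower of 75, against 22.1% and 19.6% of all genes tested. The number higher was 0 without ET replicate 2 or FK506 replicate 2 and 1 without FK506 replicate 1, and the number lower was 2, 1 and 1 in the same order. Genes called in opposite directions at 30 and 60 minutes, with a called difference between these times, numbered 91. Among them the importin *KAP123* was at -0.28 and then 1.47, and *FIG2*, a mating adhesin, at 0.45 and then -1.15. These genes were chosen after their values were seen, and their calls were not recomputed without single libraries.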
